A study of Arabidopsis thaliana with 18 samples.

Results

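Small RNAs were sequenced from total RNA of Arabidopsis thaliana seedlings held at control temperature or subjected to a 1 h heat stress (HS) of 37°C. All seedlings were of the Col-0 accession, the common laboratory line, 7 days old and grown on agar medium, and the RNA was taken from seedlings without immunoprecipitation. The comparison of HS with control asks which mature microRNAs (miRNAs) and trans-acting siRNAs (tasiRNAs) differ in abundance directly after the heat treatment, before any recovery. It was made on 6 of the 18 libraries of the series, 3 for control and 3 for HS, which the study calls biological replicates. A further 3 libraries, from seedlings returned to 22°C for 2 h after HS, entered the fits to share the estimate of the spread. All members of both count tables were taken: 403 of the 422 listed miRNAs and 3782 of the 6242 listed tasiRNA positions had a read in the 6 libraries. In bulk seedling RNA, fewer cells of a type and less RNA per cell cannot be told apart, and no row of these tables marks a tissue.

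A plant miRNA is cut from a hairpin precursor by DICER-LIKE1 as a duplex of strands from the 5p and the 3p arm. Usually the guide strand is kept by an ARGONAUTE protein, AGO1 for most miRNAs, and the other strand is degraded. Certain miRNAs also start the making of tasiRNAs: miR173 cleaves the TAS1 and TAS2 transcripts, miR390 the TAS3 transcripts and miR828 the TAS4 transcript, after which the cleaved RNA is made double-stranded and cut by DICER-LIKE4 into phased 21-nt siRNAs. Several steps of the pathway are themselves miRNA targets, with miR168 acting on AGO1, miR162 on DICER-LIKE1 and miR403 on AGO2.

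The 6 libraries held 321918 to 1059362 miRNA reads and 33519 to 117205 TAS reads, and 324 to 348 miRNAs had a read in each. These sums set the precision of the levels and are not the whole sequencing depth. The replicate 3 libraries of control, HS and recovery stood apart from the rest: on the first principal component of the tested miRNA rows, which held 59.0% of the variance, they lay at 11.3, 11.5 and 11.6, while the other 6 total RNA libraries lay between -11.6 and 1.38. Results are therefore also given without replicate 3 where this ends a call. Of the 422 rows, 121 share their mature sequence with another row, so the 422 rows hold 345 distinct sequences, and reads of identical copies cannot be assigned to a locus. Rows were therefore analysed singly, merged by identical sequence and summed by family and arm.

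The mature sequences on which the comparison turned are shown here from 5′ to 3′, read from the RefSeq TAIR10.1 genome, with the seed (bases 2 to 8) in capitals. Of the 10 with the smallest p-values, 6 were strands of the minor arm of their hairpin, beside 47 of all 182 tested sequences. The minor arm is the arm with fewer reads in the AGO1 immunoprecipitates of control seedlings, not in these total RNA libraries. All 6 start with C or G, beside 20 sequences starting with C and 24 with G among the 182. Arm class and first base share members.
miR168b-3p, chr5:18358803-18358823 minus: cCCGUCUUguaucaacugaau
miR168a-3p, chr4:10578737-10578757 plus: cCCGCCUUgcaucaacugaau
miR165a-5p, chr1:79010-79030 minus: gGAAUGUUgucuggaucgagg
miR159b-5p, chr1:6220650-6220670 plus: gAGCUCCUugaaguucaaugg
miR167a-3p, chr3:8108172-8108192 plus: gAUCAUGUucgcaguuucacc
miR158a-5p, chr3:3366391-3366411 minus: cUUUGUCUacaauuuuggaaa
miR160a-3p, chr2:16340342-16340362 plus: gCGUAUGAggagccaugcaua
miR157a-3p, chr1:24913205-24913225 minus: gCUCUCUAgccuucugucauc
miR157c-3p, chr3:6244527-6244547 minus: gCUCUCUAuacuucugucacc
miR164b-3p, chr5:287716-287736 plus: cAUGUGCCcaucuucaccauc
miR865-5p, chr5:5169998-5170018 plus: aUGAAUUUggaucuaauugag
miR167a-5p, chr3:8108090-8108110 plus: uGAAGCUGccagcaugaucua
miR173-5p, chr3:8236161-8236182 plus: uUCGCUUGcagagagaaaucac
miR156h, chr5:22597087-22597106 minus: uGACAGAAgaaagagagcac
Each lies within its annotated MIRNA gene, and miR165a-5p also lies within a second annotated RNA gene, AT1G08765. The seed of miR157a-3p is shared with miR157b-3p and miR157c-3p, that of miR167a-5p by 3 rows and that of miR156h by 11 rows. Counted from the 5′ end, miR168b-3p differs from miR168a-3p by C5U and C10U, so the copies of the 3p strand can be told apart, while the 5p guides miR168a-5p and miR168b-5p are identical.

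Among the 182 distinct sequences with enough reads to test, 1 passed (0.549%): miR168b-3p, the strand opposite the guide of MIR168b, fell after HS. Its read counts were 125, 336 and 293 in control replicates 1, 2 and 3 and 11, 43 and 56 in the HS replicates. Scaled to a common library total with TMM factors (CPM of miRNA reads), the level was 321 ± 57.7 in control and 64.4 ± 27.1 after HS (mean ± SD, n = 3 each), 4.92-fold lower. No HS library reached the lowest control library. The log2 fold change was -2.30 ± 0.41 (SE), with an adjusted p of 0.0263 in edgeR's quasi-likelihood test with Benjamini-Hochberg adjustment, which is the test behind every adjusted p below. From the pooled reads the ratio of control to HS was 4.45, with an exact binomial 95% interval of 3.64 to 5.49 that covers counting error only.

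The call depended on which libraries entered, while the size of the difference varied little. Leaving out control replicate 2, control replicate 3, HS replicate 2 or HS replicate 3 gave adjusted p-values of 0.1699, 0.110, 0.149 and 0.114, and without replicate 3 of every group it was 0.216, while the log2 fold change stayed between -2.50 and -2.10 under every alternative. In the table of single rows, where 229 rows were tested, the same strand had an adjusted p of 0.0698 and 0 rows passed (0%). Of these rows 25 had an unadjusted p under 0.05 (10.9%), 19 lower (8.3%) and 6 higher (2.62%), and DESeq2 called 1 (0.437%). HS libraries lay wholly below control in 26 rows (11.4%) and wholly above in 8 (3.49%).

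The precursor between the MIR168b strands is shown because it carries both the strand that fell and the guide that did not pass; the stretch from the first base of the 5p strand to the last base of the 3p strand (chr5:18358803-18358893, minus strand) has both strands in capitals.
MIR168b: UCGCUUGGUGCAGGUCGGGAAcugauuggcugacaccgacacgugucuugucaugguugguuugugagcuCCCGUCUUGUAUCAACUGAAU

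The other sequences with the smallest p-values did not pass in the main fit, which has no term for replicate number, and most were lower after HS. This outcome depends on that choice. With a replicate block, 15 sequences passed as lower and 6 as higher, as set out under the dependence on processing. At an unadjusted p under 0.05, edgeR gave 22 of the 182 sequences (12.1%), 18 lower (9.89%) and 4 higher (2.2%). All 3 HS libraries lay below all 3 control libraries for 24 sequences (13.2%) and above them for 10 (5.49%). DESeq2 on the same libraries called miR168b-3p alone. The median log2 fold change of all tested sequences was 0.03, with 89 of 182 below 0 (48.9%).

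miR167a-3p and the guide sequence that MIR167a shares with MIR167b were lower after HS, and neither passed. MIR167a belongs to the family that targets the auxin response factors ARF6 and ARF8. miR167a-3p had 14552, 25316 and 23420 reads in control and 5396, 4245 and 11792 after HS, or 28230.0 ± 1626 CPM against 13811 ± 5432 CPM, a log2 fold change of -1.03 ± 0.35 (adjusted p = 0.326). The guide sequence shared by miR167a-5p and miR167b had 24076 ± 5635 CPM in control and 14316 ± 2173 CPM after HS (log2 -0.75 ± 0.26, adjusted p = 0.326). Neither set of HS libraries overlapped control. The single rows of the copies, miR167a-5p and miR167b, gave -0.66 ± 0.22 and -0.65 ± 0.22.

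miR165a-5p, the strand opposite a guide of class III HD-ZIP genes, had 379, 1044 and 733 reads in control and 116, 208 and 299 after HS, so that the level of 923 ± 199 CPM in control stood against 389 ± 48.9 CPM after HS (log2 -1.25 ± 0.36, adjusted p = 0.288). miR159b-5p, opposite a guide of GAMYB-like genes, had 109, 108 and 184 reads against 18, 26 and 3 (log2 -2.43 ± 0.72, adjusted p = 0.288). With HS replicate 3 left aside the HS libraries still lay at 54.5 and 46.4 CPM, below the lowest control library at 119 CPM. miR158a-5p had 71, 190 and 255 reads against 25, 52 and 68 (log2 -1.26 ± 0.44, adjusted p = 0.326), and miR160a-3p, opposite a guide of auxin response factor genes, had 205, 127 and 169 reads against 50, 33 and 51 (log2 -1.41 ± 0.51, adjusted p = 0.326). For miR160a-3p the groups overlapped, since HS replicate 1 at 151 CPM exceeded control replicate 2 at 140.0 CPM.

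miR865-5p was sparse, with 4, 18 and 15 reads in control and 1, 1 and 0 after HS. The pooled ratio of control to HS was 12.01, with a 95% counting interval from 3.10 to 103, and the adjusted p was 0.288. Pooled, 37 control reads stood against 2 HS reads, too few to fix the size of the difference.

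miR173-5p, the 22-nt trigger of TAS1 and TAS2, was lower in all HS libraries, at 4817, 4309 and 5092 CPM in control and 2741, 2730.3 and 3261 CPM after HS (log2 -0.70 ± 0.27, adjusted p = 0.326). Its replicates were tight, with SDs of 397 and 303 CPM, and the groups were far from overlapping.

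Among the 10 sequences with the smallest p-values, 1 was higher. miR156h, a low-abundance member of the miR156 family that targets SPL transcription factor genes, had 12, 36 and 14 reads in control and 35, 36 and 28 after HS. Its level was 26.8 ± 11.97 CPM against 70.6 ± 32.7 CPM (log2 1.37 ± 0.52, adjusted p = 0.326), and the lowest HS library, at 41.6 CPM, lay just above the highest control library, at 39.7 CPM. It differs from the main guide miR156a-5p by G11A and U14A. In the single rows, miR5640 also had a small p, with 16, 8 and 6 reads against 37, 54 and 8 (log2 2.37 ± 0.86, adjusted p = 0.392). Its HS replicate 3 lay among the control libraries, and its locus overlaps the protein-coding gene AT1G05570.

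**Figure D1:**
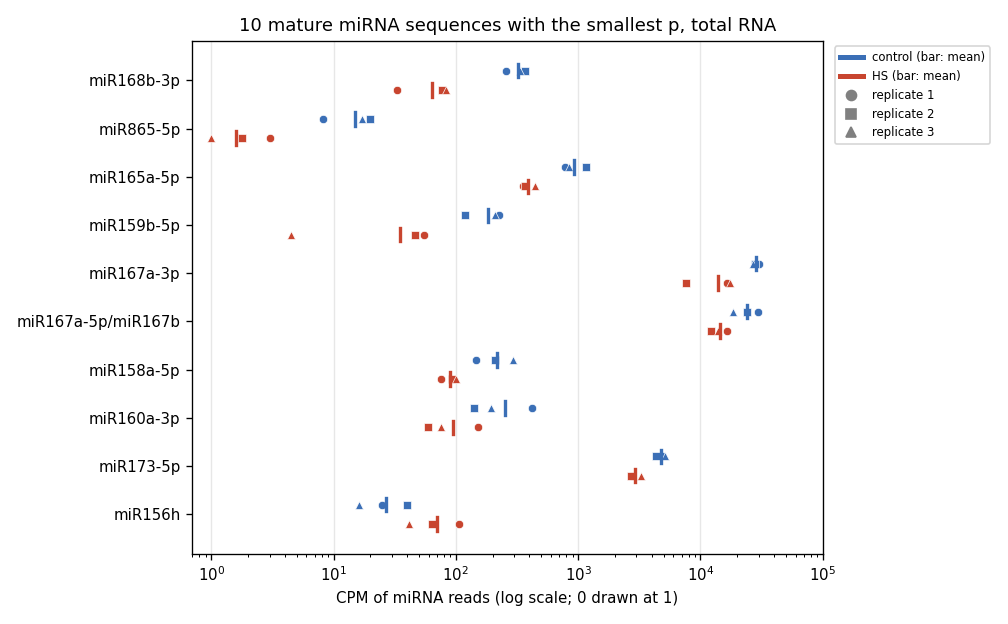
Levels of the 10 distinct mature sequences with the smallest p-values in CPM of miRNA reads on a log axis, one marker shape per replicate, blue for control and red for HS, with the group mean as a bar and a level of 0 drawn at 1. In 9 of the 10 the HS mean lay below the control mean, and miR168b-3p, at 321 against 64.4 CPM, was the sequence that passed the test.

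Summed by family and arm, 136 sums were tested and 0 passed (0%), with 16 at an unadjusted p under 0.05 (11.8%) in edgeR, 14 lower (10.3%) and 2 higher (1.47%), and none called by DESeq2. The HS libraries lay wholly below control in 20 sums (14.7%) and wholly above in 4 (2.94%). The smallest p belonged to the 5p strand of miR165, at 806, 1192 and 765 CPM in control and 334, 365 and 409 CPM after HS (log2 -1.32 ± 0.34, adjusted p = 0.206). This sum holds miR165a-5p alone, and those of miR865-5p, miR158-5p, miR159-5p and miR173-5p also hold only sequences given above.

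Both arms of miR168, miR162 and miR403, which act on the silencing machinery, had log2 fold changes below 0 as family sums, and none passed. The 3p strands of miR168 stood at 1399, 1301 and 882 CPM in control and 507, 381 and 482 CPM after HS (log2 -1.39 ± 0.48, adjusted p = 0.260), without overlap. The guide strands, miR168-5p, stood at 16843, 20650.0 and 12895 CPM against 12978, 9079 and 12168 CPM (log2 -0.56 ± 0.30, adjusted p = 0.488), where HS replicate 1 exceeded control replicate 3. The guides miR162-3p (log2 -0.33 ± 0.39) and miR403-3p (log2 -0.14 ± 0.34) overlapped between groups, and the opposite strands miR162-5p and miR403-5p stood at -0.80 ± 0.81 and -0.81 ± 0.61. The difference between arms was not tested. All 7 distinct sequences of miR168, miR162 and miR403 had a log2 fold change below 0, with a median of -0.72 beside 0.03 over all 182 sequences, and 3 of the 7 lay wholly below control (42.9%), beside 13.2% of all sequences. The median was -0.40 without control replicate 2 and -0.36 without HS replicate 2.

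The abundant guides of SPL genes made up a smaller share of the miRNA reads after HS. miR156-5p and miR157-5p together took 24.99, 24.9 and 30.3% of the miRNA reads in control and 17.3, 19.1 and 23.6% after HS, or 26.7 ± 3.09% against 20.0 ± 3.24%. The groups did not overlap, and the exact two-sided permutation p of 0.1 is the smallest that 3 against 3 libraries can give (adjusted p = 0.70 over the 21 shares and ratios tested in this way). The sum of miR156-5p was 1.503-fold lower after HS (log2 -0.59 ± 0.28, adjusted p = 0.437) and that of miR157-5p 1.40-fold lower (log2 -0.48 ± 0.24, adjusted p = 0.463). Of the 14 distinct miR156 and miR157 sequences 11 had a log2 fold change below 0, with a median of -0.57 beside 0.03 over all sequences. Their opposite strands differed in direction. miR157a-3p and miR157b-3p, which are identical, had 23598 ± 3817 CPM in control and 11806 ± 5818 CPM after HS (log2 -0.999 ± 0.40), miR157c-3p 8659 ± 1348 against 5103 ± 1631 CPM (log2 -0.76 ± 0.31) and miR156f-3p 4600.5 ± 398 against 1715 ± 1245 CPM (log2 -1.42 ± 0.65). miR156b-3p and miR156d-3p were also below 0, at log2 -0.72 and -1.09. miR156a-3p (log2 0.35 ± 0.38) and miR156c-3p (log2 0.14 ± 0.34) were above 0 with overlapping groups, and the ratio of minor to major arm differed by 0.81 in MIR156a and 0.63 in MIR156c on the log2 scale. None of these passed.

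The guides of MYB and TCP genes lay the other way. miR159-3p had 84844, 157531 and 94499 CPM in control and 133059, 143191 and 174253 CPM after HS (log2 0.42 ± 0.28, adjusted p = 0.596), and miR319-3p had a mean of 35500.3 CPM in control and 45556 CPM after HS (log2 0.36 ± 0.29, adjusted p = 0.610). In both, control replicate 2 lay within or above the HS range. Of the 6 distinct sequences of these families 5 were above 0, with a median of 0.37 (0.20 without control replicate 1 and 0.62 without control replicate 2), and the exception was miR159b-5p. miR163-3p, a 24-nt miRNA that targets methyltransferase genes, did not overlap: 10756, 14093 and 10617 CPM against 15509, 21779 and 15111 CPM (log2 0.56 ± 0.30, adjusted p = 0.488). miR8175-3p likewise did not overlap, at 2258, 2079 and 2943 CPM against 3260.4, 3354 and 5395 CPM (log2 0.72 ± 0.43, adjusted p = 0.516), and the guide miR158-3p, opposite the lower miR158a-5p, was 1.82-fold higher (log2 0.86 ± 0.36, adjusted p = 0.332), with HS replicate 1 among the control libraries.

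Among the auxin-related families, miR167 was the one whose guide lay wholly below control. Of 14 distinct sequences of miR160, miR167, miR390 and miR393, 11 had a log2 fold change below 0, with a median of -0.37 (-0.22 without HS replicate 2) and 0 passing. miR167-5p had 34149.5, 27859.7 and 20292 CPM in control and 17579, 13924 and 15379 CPM after HS (log2 -0.81 ± 0.30, adjusted p = 0.260), without overlap. By contrast miR160-5p (log2 -0.24 ± 0.58), miR393-5p, which targets auxin receptor genes (log2 0.32 ± 0.35), and miR390-5p, the trigger of TAS3 (log2 0.57 ± 0.73), overlapped. The 3p strands of miR393 lay wholly above control (log2 0.45 ± 0.26, adjusted p = 0.489). In miR390-5p the replicate 3 libraries were the lowest of both groups, at 5124 CPM in control and 3479 CPM after HS.

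The miRNAs linked to heat or copper did not pass. miR398-3p, which targets copper superoxide dismutase genes and has been linked to heat in earlier work on this species, had 2337, 1866 and 824 CPM in control and 1196, 569 and 932 CPM after HS (log2 -0.90 ± 0.69, adjusted p = 0.610). HS replicate 1 and control replicate 3 lay within the range of the other group, and the spread is too wide to give a direction. miR400-5p, an intronic miRNA also linked to heat, had 7108, 10008 and 16220.2 CPM against 2814, 13132 and 12248 CPM (log2 -0.24 ± 0.61, adjusted p = 0.816). miR397-5p (log2 -0.55 ± 0.38) and miR408-3p (log2 -0.70 ± 0.66), which act on laccase and other copper protein genes, overlapped too. The 9 copper sequences had a median of -0.43 (-0.68 without control replicate 3) with 7 below 0. The 18 sequences of the heat-linked families miR156, miR160, miR398 and miR400 had a median of -0.43 with 13 below 0. Most of these 18 are miR156 sequences, already counted above with miR157. HS libraries lay wholly below control in 2 of the 18 (11.1%), beside 13.2% of all sequences.

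In the guides of development and nutrient families the groups overlapped. miR172-3p, which targets AP2-like genes, had 5005, 1277 and 163 CPM in control and 12961, 13083 and 138 CPM after HS, so that replicate 3 lay far below the others in both groups (log2 2.02 ± 1.87, adjusted p = 0.610). Without replicate 3 of every group its log2 fold change was 2.18 with an adjusted p of 0.455. The guides of HD-ZIP III genes, miR165-3p and miR166-3p, had log2 fold changes of -0.10 ± 0.34 and -0.16 ± 0.30, while the 5p strand of miR165 gave the values above. miR396-5p, which targets growth-regulating factor genes (log2 -0.24 ± 0.23), miR171-3p (log2 -0.07 ± 0.33), miR394-5p (log2 -0.19 ± 0.32), miR824-5p (log2 0.28 ± 0.39), miR164-5p (log2 0.49 ± 0.46) and miR169-5p (log2 -0.25 ± 0.44) overlapped. So did the phosphate miRNAs miR399-3p (log2 -0.94 ± 0.88) and miR827-3p (log2 0.25 ± 0.63) and the sulfate miRNA miR395-3p (log2 0.18 ± 0.43), as well as miR161-5p, which targets PPR genes (log2 0.12 ± 0.25), and miR391-5p (log2 0.22 ± 0.74). miR828-5p, with 0, 3 and 0 reads in control and 2, 4 and 0 after HS, was too sparse to test. The other sums among the 10 with the smallest p-values were miR865-5p, miR158-5p, miR159-5p, miR167-3p and miR164-3p, at log2 -3.38, -1.30, -2.46, -1.09 and -1.14, and miR2112-5p, with 12, 18 and 32 reads against 5, 6 and 4 (log2 -1.43 ± 0.51, adjusted p = 0.260).

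More of the minor arm strands than of the major arm strands lay below control. For each hairpin with both arms listed, the minor arm was the arm with fewer reads in the AGO1-IP control libraries of the series. These libraries are not part of the comparison. Of 47 tested minor arm sequences 32 had a log2 fold change below 0, with a median of -0.43 (-0.29 without HS replicate 2), and of 45 tested major arm sequences 20, with a median of 0.03. HS libraries lay wholly below control in 13 of the minor arm sequences (27.7%) and in 4 of the major arm sequences (8.89%), beside 13.2% of all sequences, and wholly above in 1 of each. Sequences whose identical copies differed in class, such as the shared guides of miR156, miR160, miR165, miR166 and miR167, are in neither set. The sets are therefore not partner strands. By this rule miR408-3p and the sequence shared by miR171b-3p and miR171c-3p counted as minor arms, and miR169f-3p as a major arm. In the arm ratios below, miR393b-5p counted as minor too. The single call, miR168b-3p, is a minor arm. As a share of the miRNA reads, minor arms took 11.5, 8.52 and 10.11% in control and 7.71, 6.10 and 7.79% after HS, or 10.04 ± 1.49% against 7.20 ± 0.954% (exact two-sided permutation p = 0.1, the smallest possible; adjusted p = 0.70). Much of this share was miR167a-3p, with 14552, 25316 and 23420 reads in control and 5396, 4245 and 11792 after HS. The miR157-3p strands made up another large part, with 18212, 25377 and 27328 reads against 6671, 4931 and 14625. The share without these strands was not tested, so its difference does not describe minor arms in general. The lists of minor and major arms were drawn up with earlier results of these data known, so the counts are a description.

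**Figure D2:**
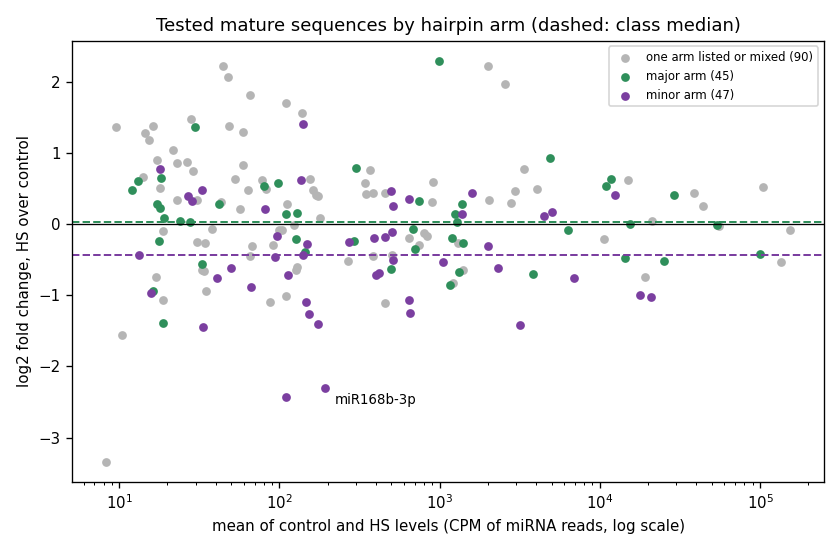
Log2 fold change of HS over control against the mean level in CPM of miRNA reads on a log axis for the 182 tested sequences, with the 47 minor arm strands in purple, the 45 major arm strands in green and the rest in grey. The dashed median of the minor arms lies at -0.43 and that of the major arms at 0.03.

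Within a hairpin, both arms are read from the same library, so the ratio of arms does not depend on the scaling. Of 89 hairpins with both arms listed, 52 had at least 100 minor arm reads over the 9 total RNA libraries. The ratio of minor to major arm was lower after HS without overlap in 9 of them (17.3%) and higher in 1 (1.92%), MIR396b. The mean ratio was lower in 34 of the 52, and the median difference on the log2 scale was -0.31. Some hairpins share mature sequences, as MIR157a and MIR157b do in both arms, so the 52 ratios are not all separate measurements. Each of the non-overlapping ratios has the exact two-sided permutation p of 0.1, the smallest that this design allows.

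In MIR158a the log2 ratio of miR158a-5p to miR158a-3p was -4.06, -4.05 and -3.85 in control and -5.35, -6.42 and -6.32 after HS, a difference of -2.04. The guide miR158a-3p had 1196, 3165 and 3687 reads in control and 1042, 4506 and 5468 after HS, against the 71, 190 and 255 and then 25, 52 and 68 reads of the minor strand. In MIR159b the ratio of miR159b-5p to miR159b-3p was -6.37, -8.18 and -6.64 in control and -9.18, -9.32 and -12.8 after HS, the last from 3 reads of the minor strand. MIR168b had -4.98, -4.74 and -4.40 in control and -7.60, -5.90 and -6.30 after HS, and MIR165a -5.01, -5.003 and -4.70 against -6.72, -5.71 and -5.90. The guides of MIR168b, MIR165a and MIR164b are identical to those of another locus, so their ratios depend on how the reads of copies were divided. MIR403 had a difference of -0.94 and MIR169a of -0.72.

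For the miR164 family, which targets NAC genes, miR164c-3p had more reads than its guide in every one of the 6 libraries, while miR164b-3p was near its guide in number in control and below it after HS. miR164b-3p had 21, 45 and 48 reads in control and 2, 9 and 20 after HS, beside 27, 50 and 46 and then 37, 55 and 42 reads of miR164b-5p, a difference of -2.35 in the log2 ratio. miR164c-3p had 44, 82 and 69 reads against 24, 14 and 30, and its ratio differed by -1.06. The guide sequence shared by miR164a and miR164b-5p had a log2 fold change of 0.63 ± 0.40 (adjusted p = 0.525).

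**Figure D3:**
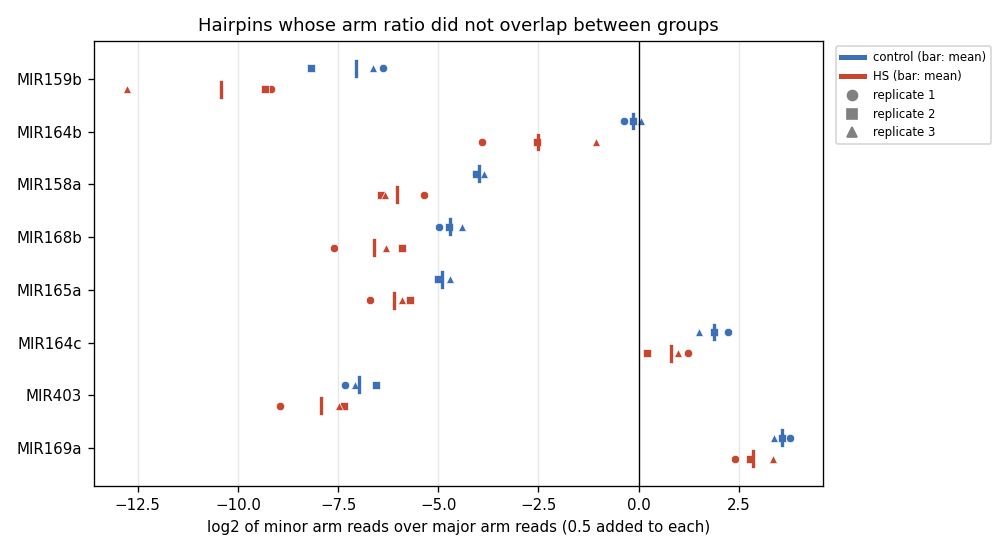
Log2 ratio of minor to major arm reads in each of the 6 libraries for the 8 hairpins with the largest non-overlapping differences, blue for control and red for HS, one marker shape per replicate and the mean as a bar. In all 8 the HS points lie to the left of the control points, from MIR159b with a difference of -3.36 to MIR169a with -0.72.

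Other features of the sequences went along with the direction. Among the 38 tested sequences that start with A, 29 had a log2 fold change above 0 (median 0.46), while the median was -0.05 for the 100 starting with U, -0.24 for the 20 starting with C and -0.25 for the 24 starting with G. The 7 sequences starting with G and the 6 starting with C that lay wholly below control are 29.2 and 30.0% of their classes, beside 10 of the 100 starting with U (10%), 1 of the 38 starting with A (2.63%) and 13.2% of all sequences. Wholly above control lay 4 of those starting with A (10.5%), 5 with U (5.00%), 1 with G (4.17%) and 0 with C, beside 5.49% of all sequences. For the 32 tested late-numbered miRNAs (those registered late, mostly little conserved) the sequences had a median of 0.56 (0.35 without control replicate 1) with 24 above 0, and their share of the miRNA reads was 0.644 ± 0.148% in control and 1.02 ± 0.136% after HS (exact two-sided permutation p = 0.1, the smallest possible; adjusted p = 0.70), without overlap. A large part of that share was miR8175, at 2427 CPM of miRNA reads in control and 4003 CPM after HS as a family sum. Sequences with the lowest mean levels had a median of 0.32 and those of the middle and highest levels -0.17 and -0.01. These classes share members, and their separate parts in the differences were not tested.

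**Figure D4:**
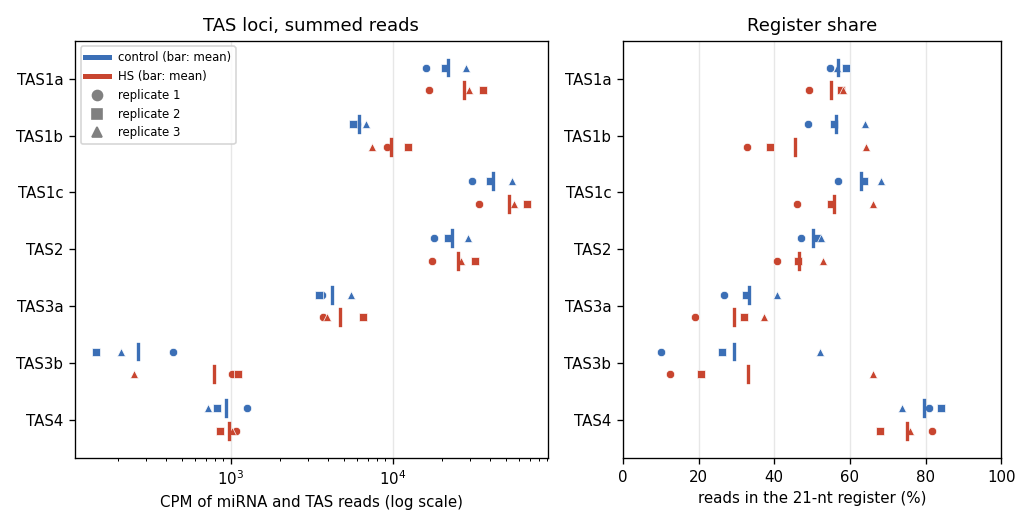
Left, summed reads of the 7 TAS loci in CPM of miRNA and TAS reads on a log axis, and right, the percentage of each locus's reads in the 21-nt register, for the 3 control libraries in blue and the 3 HS libraries in red, with the mean as a bar. TAS1b is the locus whose HS levels lie wholly above control, and the register shares overlap in all 7 loci.

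At the tasiRNA loci the totals overlapped between groups in 6 of 7 loci. Each locus was taken as the sum of its positions on both strands and fitted in one table with the miRNA rows (241 rows in the adjustment), and 0 of the 7 loci passed (0%), while 2 had an unadjusted p under 0.05 (28.6%) in edgeR and DESeq2 called 0. TAS1b, whose tasiRNAs and those of TAS1a and TAS1c target PPR and heat-induced TAS1 target genes, had 6019, 5682 and 6797 CPM in control and 9161, 12481 and 7458 CPM after HS (log2 0.65 ± 0.27, adjusted p = 0.326), without overlap. TAS3b had 442, 148 and 210.1 CPM against 1015, 1106 and 252 CPM (log2 1.57 ± 0.61, adjusted p = 0.326), where the HS library of replicate 3 lay within the control range. TAS1a (log2 0.33 ± 0.40), TAS1c (0.32 ± 0.38), TAS2 (0.14 ± 0.33), TAS3a (0.16 ± 0.35) and TAS4, whose tasiRNAs act on MYB genes (0.07 ± 0.34), overlapped. TAS reads numbered 93.8, 93.4 and 134 per 1000 miRNA reads in control and 104, 170.4 and 133 after HS, or 107 ± 23.3 against 136 ± 33.3 (exact two-sided permutation p = 0.3, adjusted p = 0.84).

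Set side by side, the trigger miR173-5p was 1.70-fold lower as a family sum, while the 4 loci it triggers had log2 fold changes between 0.14 and 0.65. These values are from separate fits, the trigger scaled to miRNA reads and the loci to miRNA and TAS reads. With TAS reads alone as the library size, so that the loci are compared with each other, TAS2 stood at -0.17, TAS1a at 0.01, TAS1c at 0.02 and TAS1b at 0.36, and 0 passed (smallest adjusted p = 0.0573, for TAS2). This scaling was added after the data were seen.

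The sites that the triggers pair with are shown because they set the register of the tasiRNAs. They were found in the RefSeq TAIR10.1 transcripts as the best pairing and are given as DNA of the transcript strand, all in lower case.
TAS1a, chr2:11722081-11722102 minus: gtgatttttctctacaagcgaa
TAS1b, chr1:18549660-18549681 minus: gtgatttttctcaacaagcgaa
TAS1c, chr2:16537890-16537911 minus: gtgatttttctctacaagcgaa
TAS2, chr2:16539991-16540012 minus: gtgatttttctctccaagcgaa
TAS4, chr3:9417809-9417830 minus: tggaatactcatttgagcaaga
miR173-5p pairs with 20 of 22 bases in TAS1a, TAS1c and TAS2 and 19 of 22 in TAS1b, and miR828 with 21 of 22 in TAS4. Cleavage opposite bases 10 and 11 of the trigger leaves position 379, 374, 379, 418 and 888 of the transcripts of TAS1a, TAS1b, TAS1c, TAS2 and TAS4 as the first base. The register of each locus was taken as the one with the most reads, summed over all 18 libraries of the series. In each of these 5 loci it was the register of the first base after cleavage.

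The share of TAS reads in the register was 52.1, 58.2 and 60.4% in control and 43.0, 51.4 and 60.5% after HS (56.9 ± 4.30% against 51.6 ± 8.76%, exact two-sided permutation p = 0.5). The libraries of replicates 1 and 2 were lower after HS and that of replicate 3 was not. Reads out of register numbered 45.7 ± 7.04 per 1000 miRNA reads in control and 64.9 ± 16.0 after HS (exact two-sided permutation p = 0.2), and reads in register 61.4 ± 17.2 against 70.8 ± 22.9 (exact two-sided permutation p = 0.8). The adjusted p-values of these register measures were at least 0.84. TAS4 had the highest register share, 79.6 ± 5.21% against 75.1 ± 6.94%, and TAS3a 33.4 ± 6.98% against 29.4 ± 9.34%.

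Of the single tasiRNA positions, 646 were tested and 0 passed (0%). At an unadjusted p under 0.05, edgeR gave 63 (9.75%), 43 lower (6.66%) and 20 higher (3.1%), while DESeq2 called 0 after adjustment and 52 at an unadjusted p under 0.05 (8.05%). Of all 646, 317 had a log2 fold change below 0 (49.1%). HS libraries lay wholly below control at 78 positions (12.1%) and wholly above at 36 (5.57%). Levels of positions are CPM of TAS reads, so they describe the mix of tasiRNAs within the pool and not its size. The 88 tested positions in register had a median log2 fold change of -0.33, with 59 below 0, and the 558 out of register a median of 0.06, with 258 below 0. In register, 19 lay wholly below control (21.6%) and 1 wholly above (1.14%), and out of register 59 below (10.6%) and 35 above (6.27%). The in-register median was below 0 in TAS1a (-0.28), TAS1b (-0.36), TAS1c (-0.15), TAS2 (-0.39), TAS3a (-0.37) and TAS4 (-0.54), and above 0 in TAS3b (1.76), where only 2 positions were tested.

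**Figure D5:**
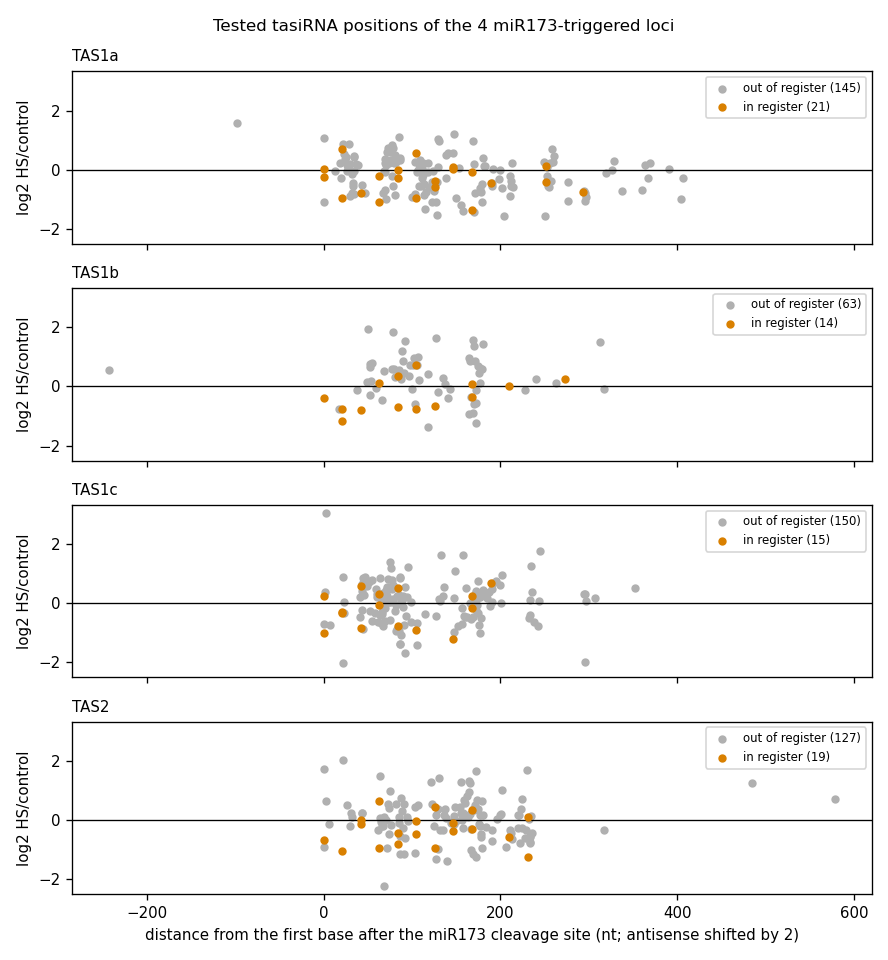
Log2 fold change of HS over control for tested positions of TAS1a, TAS1b, TAS1c and TAS2 against the distance in nt from the first base after the miR173 cleavage site, with antisense positions shifted by 2 nt, orange for positions in the 21-nt register and grey for the others. The in-register medians lie at -0.28, -0.36, -0.15 and -0.39, and the points of both kinds scatter on both sides of 0.

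The tasiRNAs with the smallest p-values and the most abundant ones that did not overlap are shown with their sequences, taken as the 21 nt that start at the listed position, since read lengths are not given in the tables.
TAS1c position 380 antisense, chr2:16537878-16537898: auaaauggucuauucgcuugu
TAS1a position 558 sense, chr2:11721891-11721911: agcauuggauauauucuagga
TAS2 position 545 sense, chr2:16539853-16539873: uauauguuucagucuuauccc
TAS2 position 574 sense, chr2:16539824-16539844: aaguuguaacucuuguugauc
TAS1c position 453 antisense, chr2:16537805-16537825: uuuucuaguucgucgauaugu
TAS1c position 461 antisense, chr2:16537797-16537817: ccaaugucuuuucuaguucgu
TAS2 position 418 sense, chr2:16539980-16540000: uccaagcgaaugaugauacuu
TAS1c position 567 antisense, chr2:16537691-16537711: aaguaacuguauuagcaacug
TAS2 position 650 antisense, chr2:16539748-16539768: uuaucaagauccaucuuacuc
TAS1c position 380, antisense beside the cleavage site, had 2, 3 and 2 reads in control and 7, 26 and 24 after HS (log2 3.07 ± 0.68, adjusted p = 0.479), the largest difference among the named positions but from few reads. TAS2 position 574 had 12, 26 and 32 reads against 31, 63 and 44 (log2 1.29 ± 0.36, adjusted p = 0.489) and TAS1c position 453 antisense 19, 31 and 45 against 38, 75 and 69 (log2 1.197 ± 0.34, adjusted p = 0.489), both out of register and without overlap.

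Among the lower positions, TAS1a position 558 had 126, 188 and 255 reads in control and 40, 89 and 110 after HS (log2 -1.09 ± 0.28, adjusted p = 0.489), and TAS2 position 545 had 96, 211 and 349 against 24, 73 and 135 (log2 -1.33 ± 0.38, adjusted p = 0.489). The other positions among the 10 with the smallest p-values were lower, from TAS1c position 460 antisense at -0.86 ± 0.28 to TAS2 position 486 at -2.25 ± 0.68, and of all 10 only TAS1a position 545 antisense lies in the register. Of the abundant tasiRNAs, TAS1c position 461 antisense, in register, had 53805, 43871 and 38477 CPM of TAS reads in control and 26132, 25948 and 27489.9 CPM after HS (log2 -0.77 ± 0.27, adjusted p = 0.489). TAS2 position 418, the first in-register siRNA after the cleavage site, had 34284 ± 1507 against 21531 ± 6372 CPM (log2 -0.67 ± 0.30, adjusted p = 0.501), without overlap. TAS1c position 567 antisense, out of register, lay the other way with 38306 ± 1169 against 53662 ± 3965 CPM (log2 0.49 ± 0.26, adjusted p = 0.619). TAS2 position 650 antisense, also out of register, lay wholly below control, at 27867 ± 429 against 18680.2 ± 5664 CPM (log2 -0.58 ± 0.32, adjusted p = 0.622). The most abundant position of the table, TAS1c position 442, stood at 97126 ± 32560.5 against 92981 ± 47690.2 CPM (log2 -0.06 ± 0.48), a spread too wide to set a limit on its change. These 5 were taken from the 12 positions with the most control reads after their values were seen.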

How the data were processed

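The deposited values were raw read counts, made by the authors with Cutadapt 2.9 and Bowtie2 on TAIR10 per the labels and the study's methods. The libraries were made from 100 ng of RNA with 15 PCR cycles. How reads of several loci were divided, and whether miRNA counting used strand, was not stated in the sources used. Without molecular identifiers, intervals cover counting error only. Counts were tested with edgeR 4.0.16 in R 4.3.3 (TMM, filterByExpr, robust quasi-likelihood fit, Benjamini-Hochberg at 0.05) over the 9 total RNA libraries, HS minus control, once per table: rows, merged sequences, family and arm sums, TAS loci and positions. SEs are the log2 fold change divided by the root of the F statistic. Shares and ratios were compared by exact permutation. Scripts were tested on simulated data.

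All 422 rows matched TAIR10.1 by name. A family sum is named by family and arm. Antisense positions were shifted by 2 nt for the register, and 0.5 was added to arm counts. Members and lists were chosen with earlier results of these data known. Named were the up to 10 rises and falls that passed, otherwise the 10 smallest p-values of each table, 35 fixed family sums, the 7 loci and up to 8 hairpins with at least 100 minor arm reads. Others named (opposite strands of the miR156, miR157, miR162, miR164, miR393 and miR403 families, abundant positions) were chosen after their values were seen. Alternatives were DESeq2 1.42.0, other factors and library sizes, filters, the 6 libraries alone, libraries left out and a replicate block.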

Additional observations from a re-analysis of the deposited data

How the results depend on the processing

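Counts of calls were small in every setting except the replicate block. For single rows, 0 passed as reported and 1 with RLE factors, no factors, DESeq2, no filter or a mean of at least 50 counts. For distinct sequences, 1 passed as reported and 0 when TAS reads entered the library size, with the 6 libraries alone or without replicate 3 of every group, and 0 to 1 when single libraries were left out. Family sums and positions gave 1 call each with no filter. Replicate numbers were not taken as pairs, since the deviations of same-numbered control and HS libraries correlated at 0.68, 0.02 and 0.81, with replicate 2 near 0. As a hint from the data and not the design, 9 of 9 libraries correlated best with one of their own number. With the replicate block, 23 rows, 21 sequences, 13 family sums, 1 locus (TAS3b) and 36 positions passed. Under that block, 15 sequences were lower and 6 higher, among them the 10 with the smallest p-values without the block except miR173-5p, and miR168b-3p had a log2 fold change of -2.32.

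Among 96 other results, miR396-5p (log2 -0.24 as reported) ranged from -0.37 to 0.063 as single libraries were left out, above 0 without HS replicate 2. Of the other family sums and loci, miR165-3p, miR166-3p, miR169-5p, miR171-3p, miR390-5p, miR391-5p, miR394-5p, miR395-3p, miR400-5p, miR403-3p, miR824-5p, miR827-3p, TAS2, TAS3a and TAS4, which passed in no setting, also took both signs as single libraries were left out. Using no factors moved the median of all sequences from 0.03 to 0.12, and library sizes with TAS reads moved it to 0.19, where the minor arm median was -0.30 and the SPL median -0.44. The difference in TAS reads per 1000 miRNA reads ranged from 11.2 to 44.4 and that in the register share from -9.71 to -0.95 percentage points as libraries were left out, the last without HS replicate 1. Depth limits the sparsest strands, such as miR865-5p with 37 control and 2 HS reads.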
